A study of Danio rerio with 4 samples.

Results

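The regions described here surround the 4C baits of nfixb and barx1, a pair of zebrafish genes for transcription factors. 4C is a method that reads out which DNA lies close, in the nucleus, to 1 chosen fragment, the bait. The members are the CpGs within 100 kb on either side of each bait, at position 14457400 of chromosome 3 for nfixb and 28516400 of chromosome 11 for barx1 (Zv9). The rule gave 3565 CpGs at nfixb and 3139 at barx1, 6704 of the 24222160 nuclear CpGs in the files. Within them lay 8 of the 30631 low stretches of the genome, 3 at nfixb and 5 at barx1. A low stretch is a run of at least 6 covered CpGs whose reads pooled to under 25% methylation at 4 hpf (hours post-fertilization), and the low stretch that holds a bait is called its core.

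Whole zebrafish embryos of 2, 4, 8 and 24 hpf were measured by whole-genome bisulfite sequencing, which tells methylated from unmethylated cytosines, with 1 library per stage. No genetic change or drug is named for any of the embryos, the strain is not given in the labels, and how many embryos went into a library is not given there either. Each library averages over all cells of the embryos, so fewer unmethylated cells and partly methylated alleles in every cell cannot be told apart. Both baits come from the table of primers that the study used for 4C. Its positions carry no assembly name, are rounded to 100 bp and were taken as Zv9.

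Methylated cytosines in vertebrate genomes lie mostly in CpGs, and most CpGs are methylated. Stretches without methylation are found at promoters and at enhancers, the distal elements that raise transcription of a gene, and proteins bound to DNA can keep methylation away. nfixb encodes a member of the nuclear factor I family, DNA-binding proteins known for roles in neural and muscle development in mouse. barx1 encodes a homeobox protein that acts in the cartilage of the pharyngeal arches in zebrafish. In the RefSeq gene order of a newer assembly (GRCz12tu), the neighbours of nfixb include gadd45gip1 on one side and nme4 on the other, and barx1 lies between ptpdc1a and phf2. Exons, introns and gene starts of Zv9 were not placed here. In the map drawn by the study the nfixb bait lies inside nfixb and the barx1 bait between barx1 and phf2.

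The bait primers are shown as the sequences with which the study read these baits. The regions were placed by the listed positions, and the primers were not mapped to the genome. The reading primers end in the cutting site of the enzyme DpnII, which is in capitals.
nfixb reading primer: ccattgaactttcaagcagctGATC
nfixb second primer: tccaacaactgtttatgatgatgca
barx1 reading primer: gcagaaagatggagtatgactGATC
barx1 second primer: acaaactggtggcaggaaca
None of the 4 holds a CpG, so no methylation value falls on them. Both reading primers have 44% G and C.

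The libraries differ in depth. Over the genome a CpG had on average 28.6 reads in the library of 2 hpf, 20.9 in that of 4 hpf, 8.04 in that of 8 hpf and 12.3 in that of 24 hpf, and somewhat more in both regions (34.8, 25.2, 9.35 and 14.3 at nfixb, 39.1, 25.3, 11.2 and 15.4 at barx1). Mitochondrial CpGs read 0.436% to 0.853% methylated, highest at 2 hpf, which sets the scale of incomplete conversion. A level below is the share of methylated reads among all reads of the CpGs named, with its 95% Wilson interval. Numbers of reads for several CpGs are coverage summed over them. A read that crosses several CpGs is counted at each, so there are fewer distinct reads. Intervals and exact tests cover counting error only, treat neighbouring CpGs of a read as independent and are therefore too narrow. With 1 library per stage there is no spread between replicates, and a test compares 2 libraries and not 2 stages.

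Both regions were sharply divided into highly methylated DNA and a few stretches with almost none. At 4 hpf, 10 of 182 windows of 1 kb at nfixb (5.49%) and 15 of 188 at barx1 (7.98%) were under 25% methylated, against 3.27% of the windows of the genome. A further 164 windows at nfixb (90.1%) and 169 at barx1 (89.9%) were over 75%, which left 8 and 4 in between. Over the genome 90.9% of windows were over 75% and 5.85% in between at 4 hpf, so this division was not particular to these regions. The low stretches took up 8443 bp or 4.22% of the nfixb region and 14176 bp or 7.09% of the barx1 region. They held 8.05% of the CpGs at nfixb and 14.4% at barx1, against 4.52% over the genome. The core of each region, which the study's choice of baits favoured, is part of these shares and of the low windows. All 8 were called again from the reads of each of the other stages on their own, the one 61.4 kb above the barx1 bait in 2 pieces at 24 hpf. Because 4 hpf was the stage that chose the stretches, their level at 4 hpf is part of the rule, and changes from 4 hpf are given beside those of all stretches.

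**Figure D1:**
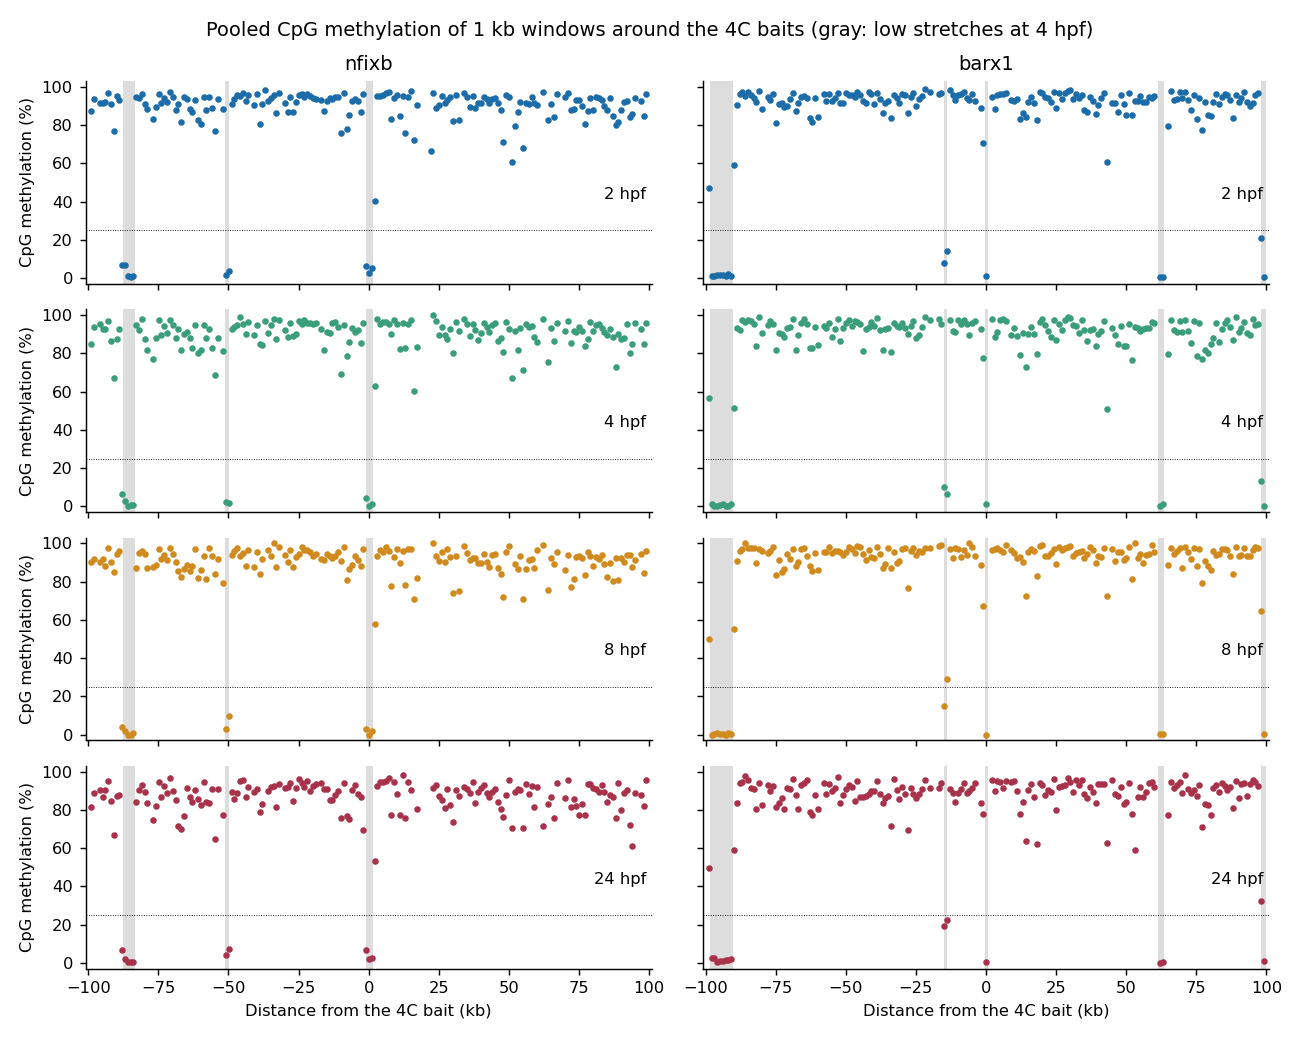
Pooled CpG methylation in percent of each 1 kb window (points) against distance from the bait in kb, for nfixb (left) and barx1 (right) at the 4 stages. Gray marks the low stretches of 4 hpf and the dotted line 25%; the few low windows sit in the gray bands at each stage, and at 24 hpf the remaining windows lie slightly lower than before.

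The nfixb core spanned 2665 bp (chr3:14456448-14459112) and held 61 CpGs. At 2.29 CpGs per 100 bp it was among the sparser stretches of the genome (percentile 9.63 for density) and among the longer ones (percentile 96.5 for length). Of its 1971 reads in the library of 2 hpf, 4.87% were methylated (4.00 to 5.91), of 1152 in that of 4 hpf 1.39% (0.857 to 2.24), of 462 in that of 8 hpf 0.866% (0.337 to 2.20), and of 739 in that of 24 hpf 3.92% (2.75 to 5.58). The core was thus nearly free of methylation throughout, with the first and last stage above the 2 in the middle. The difference from 4 hpf was 3.48 percentage points at 2 hpf (interval 2.26 to 4.65), where the median of all low stretches was 0.595, and 2.54 at 24 hpf (1.08 to 4.27), where that median was 1.26. Among the changes of all low stretches these stood at percentile 82.0 for 2 hpf and 62.8 for 24 hpf. At 8 hpf the difference was -0.523 (-1.53 to 0.918), an interval that includes 0. The level at 24 hpf minus that at 2 hpf, a difference that does not use the stage of the rule, was -0.946 (-2.52 to 0.921).

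Single CpGs of the nfixb core show where those few methylated reads were. Among CpGs with at least 5 reads, those at 0 numbered 19 of 60, 47 of 59, 43 of 47 and 38 of 55 from the first stage to the last. These counts depend on depth, since the median reads per CpG of the core were 31, 14, 6 and 11. At 2 hpf the highest CpG was at 16.0%. At 4 and 24 hpf the highest CpG was the last of the core, at 14459112, with 50% of 8 reads and 46.2% of 13 reads. The 2 uppermost CpGs together read 14.1%, 26.1%, 0% of 12 reads and 35.3%. Without them, a split made after their values were seen, the core stood at 4.42%, 0.886%, 0.889% and 2.41% in the order of the stages, and the difference of 24 from 4 hpf was 1.53 points (0.362 to 2.998). The part of the core below the bait read 5.50%, 1.51%, 0.847% and 3.28%, and the part above it 4.49%, 1.34%, 0.885% and 4.38%. Against 4 hpf both parts were higher at 2 hpf, by 3.99 points (1.56 to 6.06) below the bait and 3.15 (1.68 to 4.58) above it. At 24 hpf the part above was higher by 3.04 (1.16 to 5.47), and the part below by 1.77 with an interval that includes 0 (-0.706 to 4.56).

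The barx1 core was shorter and also nearly free of methylated reads. It spanned 1011 bp (chr11:28516107-28517117) with 24 CpGs, 2.37 per 100 bp. Methylated were 1.04% of 867 reads for 2 hpf (0.547 to 1.96), 1.19% of 590 for 4 hpf (0.576 to 2.43), 0% of 201 for 8 hpf (0 to 1.88) and 0.755% of 265 for 24 hpf (0.207 to 2.71). These values lie close to the share of methylated reads in the mitochondrial DNA, and their intervals overlap at all stages. Against 4 hpf the difference was -0.148 points (-1.48 to 0.958) for 2 hpf, -1.19 (-2.43 to 0.786) for 8 hpf and -0.432 (-1.79 to 1.62) for 24 hpf. No change was thus detectable. A rise of more than 1.62 points by 24 hpf lies outside the interval, but the interval covers counting error only and is too narrow, so such a rise is not excluded. CpGs at 0 were 17 of 24, then 17 of 23, 20 of 20 and 18 of 20. The highest single CpG was 11.1% for 2 hpf, 5.71% for 4 hpf and 20% for 24 hpf.

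Set against each other in the same library, the cores differed most clearly at 2 hpf. There the nfixb core exceeded the barx1 core by 3.83 points (2.57 to 4.98), and by 3.38 (2.13 to 4.52) without its 2 uppermost CpGs. At 24 hpf the excess was 3.17 (0.887 to 4.91), but without these 2 CpGs it was 1.66 with an interval that includes 0 (-0.496 to 3.18). At 4 hpf the difference was 0.202 (-1.15 to 1.25) and at 8 hpf 0.866 (-1.08 to 2.20), and both of these intervals include 0.

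**Figure D2:**
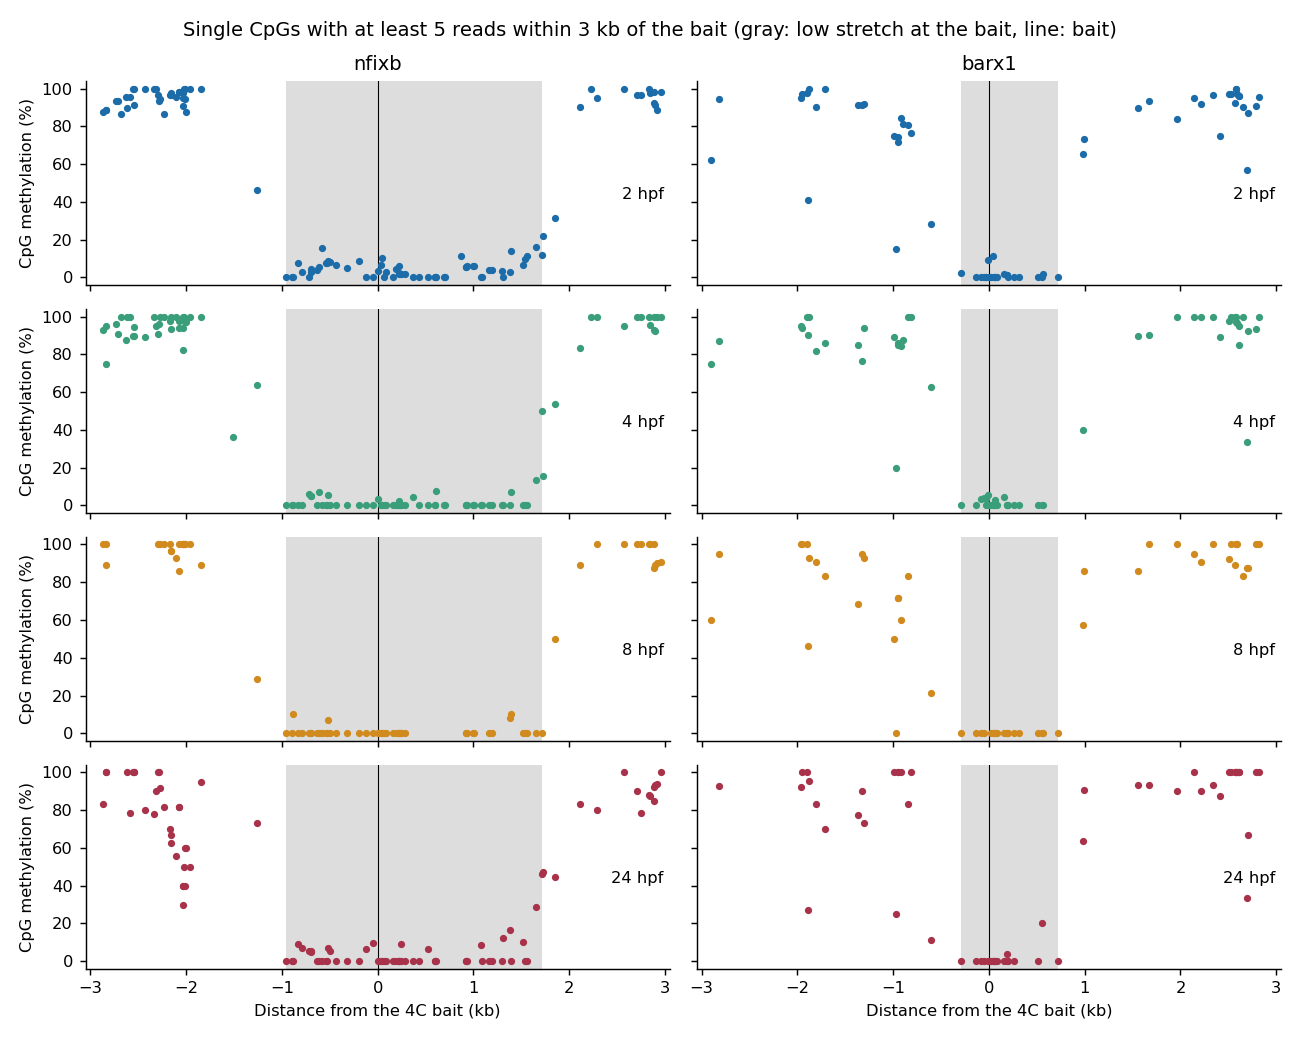
Methylation in percent of single CpGs with at least 5 reads (points) against distance from the bait in kb, within 3 kb of the nfixb bait (left) and the barx1 bait (right) at the 4 stages. Gray marks the core and the line the bait. Most CpGs in the gray are near 0 at each stage. Exceptions include the last CpG of the nfixb core (50% at 4 hpf, 46.2% at 24 hpf) and a barx1 CpG at 20% at 24 hpf. The CpGs about 2 kb below the nfixb bait drop to between 30.0% and 81.8% at 24 hpf.

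The edges of the cores were crossed within about 1 kb. On the side of higher coordinates, levels pooled over 3 neighbouring CpGs first reached 75% at 518 bp from the nfixb core and at 271 bp from the barx1 core, at each of the 4 stages. They exceeded 50% at 518, 401, 141 and 401 bp from the nfixb core in stage order, and at 262 or 271 bp from the barx1 core. The upper end of the run as called in each library also shifted, from 14459130 for 2 hpf to 14459055 for 24 hpf at nfixb, and from 28517117 to 28516968 for 24 hpf at barx1. The lower end as called was 14456502 in place of 14456448 for 24 hpf at nfixb. At barx1 it was 28515791 in place of 28516107 for 8 hpf, where the run was 1327 bp long. These ends follow levels pooled over 3 neighbouring CpGs. Of the CpGs left out at 24 hpf, those at 14456448 and 28517117 themselves read 0%, of 7 and 13 reads. The one left out at 14459112 read 46.2% of 13. On the side of lower coordinates 75% was reached within 554 bp of the barx1 core at every stage. At nfixb the distance was 889 bp for 2 and 4 hpf, 1009 bp for 8 hpf and 561 bp for 24 hpf, across a gap with few and thinly read CpGs. Between low core and high surroundings lay single CpGs of middle level. At nfixb the CpG at 14459253, 1853 bp above the bait, read 31.3%, 53.6%, 50% and 44.4% from the first stage to the last. At barx1 the CpG at 28515791 read 28.6% of 35 reads, 62.5% of 16, 21.4% of 14 and 11.1% of 9. A CpG at 28515433, outside the barx1 core, was low by itself at 15.2%, 20% of 50 reads, 0% of 5 reads and 25% of 8 reads, while its neighbours at 28515404 and 28515451 lay between 50% and 100% at all stages.

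About 1 kb below the lower edge of the nfixb core, methylation was lower at 24 hpf than at the earlier stages, while the core itself stayed low. The 1 kb window at chr3:14455001-14456000, with 23 CpGs, read 96.0% (94.6 to 97.1), 95.9% (94.1 to 97.1) and 97.1% (94.2 to 98.6) for the first 3 stages and 69.6% (64.2 to 74.4, 312 reads) for 24 hpf. Only the last interval stands apart from the other 3. The difference of 24 hpf from 4 hpf was -26.3 points (-31.8 to -21.2), and 19 of the 21 CpGs with at least 5 reads in both libraries were lower at 24 hpf. It is 1 of 2 windows out of 180 at nfixb that were lower by at least 25 points at 24 hpf, against 0.414% of the windows of the genome in that direction. None of the 180 was higher by that much, against a background of 0.586%.

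Within the window the drop lay in 272 bp, chr3:14455168-14455439, a segment bounded after seeing the values, by the first and last CpG there with an exact Fisher p under 0.05. Its 15 CpGs read 95.8%, 96.8%, 97.1% and 61.7% (55.3 to 67.8, 230 reads) in the order of the stages. Each of the 15 was lower at 24 than at 4 hpf, 13 of them with a two-sided Fisher exact p under 0.05. These CpGs are not independent, since close ones can lie on the same reads. Each CpG from 14455364 to 14455398 had 10 reads at 24 hpf. The outermost CpGs pass by the way the segment was bounded. The lowest of them, at 14455364, went from 82.4% of 34 reads to 30.0% of 10 reads. The CpG at 14455298 went from 100% of 53 reads to 55.6% of 18 reads, with an adjusted p of 0.0103 by Fisher's exact test with Benjamini-Hochberg adjustment over all CpGs of the genome. The CpG at 14455371 (100% to 40%, adjusted p 0.0427) and the CpG at 14455238 (100% to 66.7%, adjusted p 0.0484) also passed. Of the CpGs tested, 6239 of both regions at 2 hpf, 5095 at 8 hpf and 5728 at 24 hpf, no other had an adjusted exact p under 0.05 in its comparison with 4 hpf. Over the genome 0.0589% of CpGs were lower and 0.0292% higher at 24 hpf by this rule, 0.00234% and 0.00372% at 2 hpf, and 0.00328% and 0.00285% at 8 hpf. At 2 and 8 hpf the same 272 bp differed from 4 hpf by -0.925 (-2.91 to 1.19) and 0.285 points (-3.23 to 2.65). This segment ended 1009 bp from the core, and the few CpGs in between showed no such drop where read. The one at 14455559 read 100% of 16 reads at 4 hpf and 95% of 20 at 24 hpf. The one at 14456138 read 63.6% of 11 and 73.3% of 15, and the one at 14455887 had 1 read at 24 hpf.

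The other windows that moved by 25 points or more were poorer in CpGs or reads. At nfixb the window at 61.6 kb above the bait (chr3:14519001-14520000, 8 CpGs) read 97.4%, 98.1%, 99.2% and 71.8% of 78 reads. Its difference of -26.3 points (-37.2 to -17.0) was shared by 6 of 6 CpGs read well enough in both libraries. At barx1, 1 of 188 windows was lower by at least 25 points at 24 hpf, against 0.414% of the windows of the genome. It lay 52.6 kb above the bait (chr11:28569001-28570000, 6 CpGs). It read 92.3%, 93.5%, 100% of 29 reads and 59.0% of 39 reads, and 5 of 5 CpGs were lower. One barx1 window was higher at 8 hpf, 1 of 188 against a background of 0.452% (and 0 lower in either region, background 0.255%), at the edge of the uppermost low stretch (chr11:28614001-28615000, 22 CpGs). Its pooled level was 21.2%, 13.4%, 64.5% and 32.2%, but at 8 hpf it had 76 reads, and 3 CpGs had at least 5 reads in both libraries. Over these 3 CpGs the mean difference was 6.51 points in place of 51.1, so the pooled value reflects which CpGs were read. At 2 hpf no window of either region moved by 25 points, where the backgrounds were 0.179% higher and 0.0764% lower.

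The other 6 low stretches lay between 13.9 and 98.1 kb from their bait. The longest was at barx1, chr11:28417929-28426310, whose 8382 bp and 194 CpGs put it at percentile 99.5 for length among all low stretches. It read 1.87%, 0.963%, 0.645% and 2.04% in stage order. A second barx1 stretch, chr11:28501462-28502514 with 36 CpGs, was the nearest to the bait and read 1.47%, 0.485%, 1.28% and 2.38%. Its difference of 24 from 4 hpf was 1.90 points (0.404 to 4.63), but it rested on the CpGs at its ends. Without the first 2 and last 2 CpGs, a check added after the values were seen, the stretch read 0.527% at 4 hpf and 0% of 210 reads at 24 hpf, a difference of -0.527 (-1.35 to 1.30). The stretch at chr11:28577835-28579759 was the richest in CpGs, with 6.29 per 100 bp and 121 in all, and read 1.08%, 0.792%, 1.09% and 0.638%. The stretch at chr11:28614520-28616324 with 77 CpGs read 0.952%, 0.755%, 0.707% and 1.89%.

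At nfixb both other stretches lay below the bait. The one 83.5 kb away, chr3:14369636-14373924, had 159 CpGs over 4289 bp and read 1.66%, 0.790%, 0.471% and 0.837%. The one 49.9 kb away, chr3:14406035-14407523, had 67 CpGs and read 1.45%, 1.49%, 2.85% and 2.59%. In the 100 kb above the nfixb bait no stretch met the rule. At 4 hpf the 1 kb windows from 14475001 to 14480000 on that side had between 3 and 18 reads each, so a low stretch could be missed there.

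The core of nfixb had the highest level of the 8 at 2 hpf, with or without the CpGs at its ends. At 24 hpf it was highest with all its CpGs, but at 2.46% without the first 2 and last 2 it was next to the nfixb stretch 49.9 kb away, at 2.55% with its own ends left out. The core of barx1 had no methylated read at 8 hpf, with an interval that overlaps those of other stretches. Over the 8 stretches the 2 hpf levels ranged from 0.952% to 4.87% (median 1.46%), those of 4 hpf from 0.485% to 1.49% (median 0.878%), those of 8 hpf from 0% to 2.85% (median 0.786%) and those of 24 hpf from 0.638% to 3.92% (median 1.96%). The medians of all low stretches of the genome were 2.08%, 1.42%, 1.61% and 2.93%. None of the 8 differed from 4 hpf by 10 points or more at any stage. Over the genome 7.3% of low stretches were higher by that much and 0.479% lower at 2 hpf, 6.54% and 1.44% at 8 hpf, and 16.5% and 0.962% at 24 hpf. How many of all low stretches pass by their intervals alone was not counted. Their median difference from 4 hpf, the stage that chose them, was 0.595 points at 2 hpf and 1.26 at 24 hpf. By the intervals alone, 4 of the 8 were above their 4 hpf level at 2 hpf and 4 at 24 hpf. At 8 hpf 0 were, and 0 were below it at any stage. Choosing stretches for low levels at 4 hpf favours higher values at the other stages, so these counts are no test of a rise. At 2 hpf these were the nfixb core, the nfixb stretch 83.5 kb away and the barx1 stretches 90.1 and 13.9 kb away. At 24 hpf they were the nfixb core and the barx1 stretches 90.1, 13.9 and 98.1 kb away. Part of this depended on the ends of the stretches. Without the first 2 and last 2 CpGs of each, 3 of the 8 were above 4 hpf at 2 hpf, where the barx1 stretch 13.9 kb away no longer was. At 24 hpf the 3 were the nfixb core, the nfixb stretch 49.9 kb away (1.37 points, 0.109 to 3.27) and the barx1 stretch 90.1 kb away. The barx1 stretch 98.1 kb away then differed by 0.398 (-0.456 to 1.67). At 8 hpf 1 was above, the nfixb stretch 49.9 kb away (1.48, 0.0253 to 4.02).

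**Figure D3:**
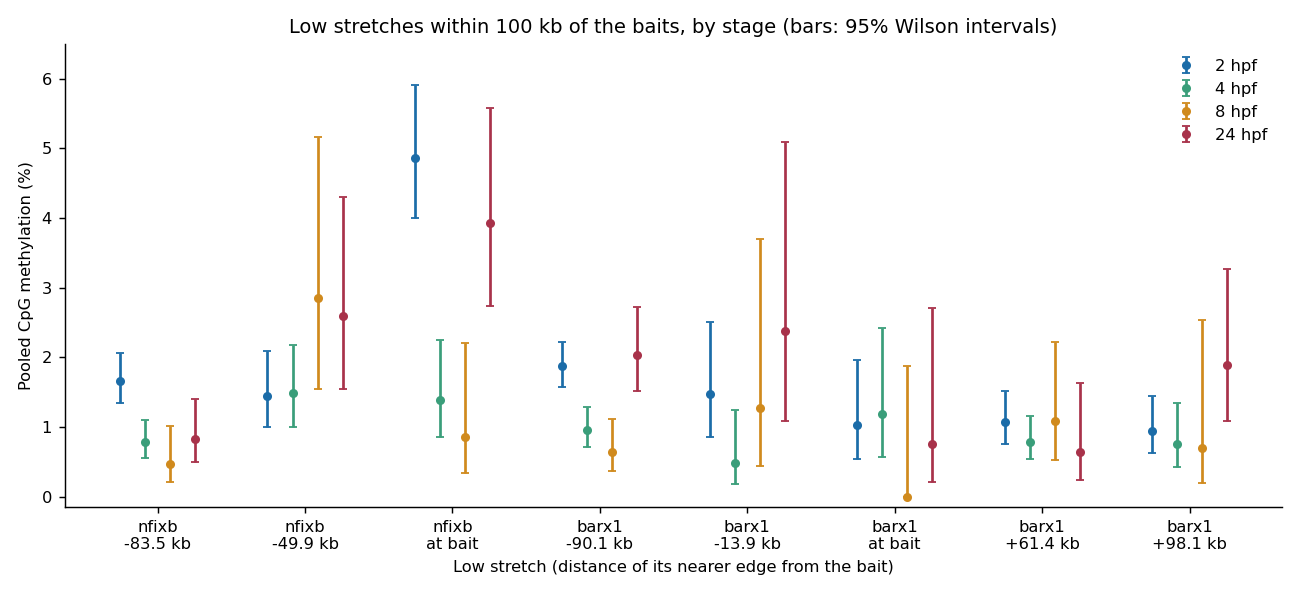
Pooled CpG methylation in percent of the 8 low stretches (points) with 95% Wilson intervals (bars) at 2, 4, 8 and 24 hpf, ordered by locus and distance from the bait. The stretch at the nfixb bait reaches 4.87% at 2 hpf and 3.92% at 24 hpf, and all points lie under 5%.

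The rule of at least 6 covered CpGs left out shorter runs. The clearest lay 43 kb above the barx1 bait, chr11:28559425-28559532, with 4 CpGs that read 4.17%, 4.00%, 7.14% of 28 reads and 2.38% of 42 reads. It was thus low at every stage. A run at nfixb from 14512059 was called at 8 hpf with 5 covered CpGs and at 24 hpf with 3. The smallest stretch that met the rule was the barx1 core, with 24 CpGs. The next low stretch beyond the regions lay 119 kb below and 134 kb above the nfixb bait, and 102 kb below and 139 kb above the barx1 bait.

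More than 1 kb away from any low stretch, the DNA of both regions was highly methylated and fell slightly at 24 hpf. At nfixb these surroundings read 92.2% (92.0 to 92.3), 92.3% (92.1 to 92.5), 91.9% (91.6 to 92.2) and 88.8% (88.5 to 89.1) in stage order. At barx1 they read 93.1% (93.0 to 93.3), 92.6% (92.4 to 92.8), 94.3% (94.0 to 94.5) and 90.0% (89.7 to 90.3). The same measure over the genome was 91.6% at 2, 4 and 8 hpf and 88.8% at 24 hpf. The lowest value of each region was thus at 24 hpf, as in the genome. The median difference of 1 kb windows between 24 and 4 hpf was -2.80 points at nfixb, -2.34 at barx1 and -2.53 over the genome.

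Single CpGs under 25% occurred in these surroundings as well. Among CpGs with at least 5 reads there were 60, 68, 37 and 81 of them at nfixb and 12, 43, 11 and 62 at barx1, from the first stage to the last. Over the genome the share was 2.37%, 2.24%, 2.54% and 2.64%, against 2.02%, 2.29%, 1.59% and 2.96% at nfixb and 0.468%, 1.70%, 0.474% and 2.55% at barx1. Among CpGs read at least 5 times in all 4 libraries, 2238 at nfixb and 2216 at barx1, 35 were under 25% at 4 hpf in each region. At nfixb 22 of these were also low at 2 hpf, 23 at 8 hpf and 28 at 24 hpf. At barx1 the numbers were 5, 7 and 18. These CpGs were picked at 4 hpf, which by itself favours that stage in such counts. The share over the genome was not counted, so the counts cannot be set against other regions. Whether the embryos carried a CpG at each of these positions was not tested.

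Counted CpG by CpG, more CpGs were lower than higher at 24 hpf in both regions, as over the genome. At nfixb, 109 of 2951 CpGs (3.69%) were lower than at 4 hpf with a Fisher exact p under 0.05 and 16 (0.542%) higher, against 2.95% and 0.888% of the CpGs of the genome. Of the 109, 13 were those of the 272 bp below the core. At barx1, 60 of 2777 (2.16%) were lower and 16 (0.576%) higher. At 2 hpf the counts were 31 lower and 44 higher of 3233 at nfixb, and 11 lower and 53 higher of 3006 at barx1, where the genome gave 1.03% and 1.59%. At 8 hpf they were 19 lower and 16 higher of 2490 at nfixb, and 9 lower and 39 higher of 2605 at barx1, against 1.01% and 0.626%. Within the cores, 1 CpG at nfixb was lower at 2 hpf by this exact test, and no other CpG of either core passed it at any stage.

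Coverage of the low stretches fell short of that of the DNA around them, most of all in the 2 later libraries. Reads per CpG in the low stretches were, in stage order, 0.875, 0.968, 0.763 and 0.703 times those outside at nfixb, and 0.752, 0.917, 0.598 and 0.526 at barx1. The same ratio over the genome was 0.831, 1.07, 0.688 and 0.581. The part that uneven coverage plays in the levels was not tested.

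The table of baits holds 4 further loci, for the transcription factor genes meis1b, meis2a, lmx1ba and sox5, and each of these baits also lay within a low stretch. The study's choice of hypo-enhancers as baits favoured this in advance. From 4 to 24 hpf the level at the sox5 bait went from 1.39% to 15.9% and at the lmx1ba bait from 1.55% to 15.1%. At meis2a it went from 1.25% to 6.35% and at meis1b from 0.904% to 1.77%. The change at sox5 exceeded that at nfixb by 11.9 points (7.05 to 17.8) and that at barx1 by 14.9 (9.90 to 20.7). For lmx1ba the excess was 11 points (7.02 to 15.2) over nfixb and 13.9 (9.84 to 18.2) over barx1. Both the nfixb and the barx1 core were thus under 4% at 24 hpf, where the sox5 and lmx1ba stretches were over 15%. The change at meis2a exceeded that of barx1 by 5.54 points (2.30 to 9.21), and that of nfixb by 2.57 with an interval that includes 0 (-0.477 to 6.28). For meis1b the differences from nfixb (-1.67, -3.54 to 0.0128) and from barx1 (1.29, -0.862 to 2.90) were within counting error.

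**Figure D4:**
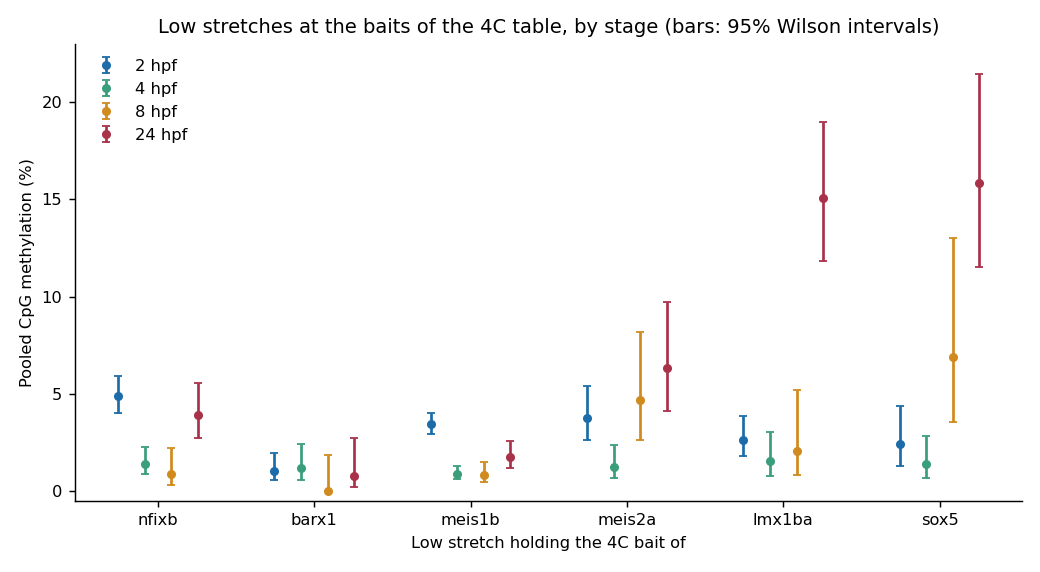
Pooled CpG methylation in percent of the low stretch at each of the 6 baits (points) with 95% Wilson intervals (bars) at 2, 4, 8 and 24 hpf. At 24 hpf nfixb (3.92%) and barx1 (0.755%) stay below lmx1ba (15.1%) and sox5 (15.9%).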

How the data were processed

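Bisulfite reads of 4 libraries had been mapped by the authors to Zv9 (danRer7). The deposited values are, per CpG, the fraction of methylated reads and the coverage, the number of reads on both strands, with no normalization. No source used here names the aligner or says how duplicate reads were handled. Fraction times coverage came within 0.00124 of a whole number at every CpG and was used as the methylated reads.

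Levels are summed methylated reads over summed coverage, with Wilson 95% intervals, and differences have Newcombe intervals. The interval of a difference between 2 changes was combined from theirs. Low stretches are runs where the level pooled over the reads of 3 neighbouring covered CpGs is under 25%, broken by gaps over 1 kb. Windows of 1 kb needed 6 covered CpGs and 20 reads. Two-sided Fisher exact tests used CpGs with at least 5 reads in both libraries, with Benjamini-Hochberg adjustment over all of them. The caller and the test were tested on simulated data. The tools were scipy 1.17.1, numba 0.67.0, pandas 2.3.3 and numpy 2.4.6 under Python 3.11.15.

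The regions, the call rules and the alternatives were chosen with earlier results of these data known. The loci named are both cores, the low stretches with the most CpGs or the largest changes in each region, the core CpGs with the highest levels and the cores at the other baits. Windows and CpGs outside the cores were named after their values were seen. Gene starts were not placed, since no Zv9 annotation was used here. The alternatives changed the averaging, the read minimum, the limits and the caller's smoothing.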

Additional observations from a re-analysis of the deposited data

How the results depend on the processing

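Of 147 recomputed values, 99 counted as unchanged. For levels and window differences this meant within the interval first reported, and for counts and lengths within 1.5 times the first value. For differences between the cores it meant an interval that again included, or again excluded, 0. The numbers of low stretches and low windows and the lengths of both cores were unchanged under each alternative tried, and so was the barx1 core level at each stage. The nfixb core level within 500 bp of the bait was 3.56%, 0.441%, 0% and 1.96% at 2, 4, 8 and 24 hpf, and without its 2 uppermost CpGs, an alternative added after seeing the data, it was 2.41% at 24 hpf, where its excess over the barx1 core went from 3.17 to 1.66 points. Without the first 2 and last 2 CpGs of each low stretch, also added later, 1 stretch in place of 0 was above 4 hpf at 8 hpf. As means of CpG fractions the surroundings of nfixb read 90.6%, 90.5% and 87.8% at 2, 4 and 24 hpf, and those of barx1 92.6%, 91.5% and 89.2%. Without CpGs of over 3 times the median coverage, nfixb read 91.9% at 2 hpf and 88.4% at 24 hpf, and barx1 92.9%, 92.3%, 94.0% and 89.4%.

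At a Fisher exact p under 0.01, nfixb had 12 CpGs higher and 5 lower at 2 hpf, 4 and 5 at 8 hpf, and 4 and 37 at 24 hpf, and barx1 had 16 and 1, 9 and 1, and 5 and 18. With at least 10 reads, the counts at 8 hpf were 9 higher and 12 lower at nfixb and 25 and 4 at barx1. The share over the genome was not counted for either setting, so these counts cannot be set against other regions. After adjustment by Benjamini-Hochberg 3 CpGs remained lower at 24 hpf at nfixb, and 0 in each other count. The rise of the barx1 window at 28614001 at 8 hpf was 6.51 points over CpGs read in both libraries.

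The depth at 8 hpf limits single CpGs most. No library was left out, with 1 per stage, and the placement of gene starts was not run. No paired analysis was possible because each stage has 1 library.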
